A study of Zea mays with 12 samples.

Results

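The genes described here are adh1 (Zm00001d033931), which encodes alcohol dehydrogenase 1, and the sucrose synthase genes sh1 (Zm00001d045042, shrunken1) and sus1 (Zm00001d047253, sucrose synthase 1). They are 3 of the 39498 maize genes in the count table and were picked by name, as root genes with known links to low oxygen and to sugar supply, to follow them over the hours of treatment. Seedlings of the inbred line B73 were given tunicamycin (TM) at 5 µg/ml, a drug that blocks N-glycosylation and so causes ER stress, and their roots were taken at 0, 6 and 12 hr. Every time point had 2 biological replicates, and every root lysate was split to give an RNAseq library of total RNA and a ribo-seq library of ribosome-protected fragments (RPFs), the stretches of mRNA that ribosomes cover. The labels put the seedlings at 7 days, and the methods describe an older age for the roots used in ribosome profiling. Roots kept for 12 hr without TM are mentioned in the methods, but none of the 12 libraries is labelled as such. The drug and the time that passed in the bottle therefore cannot be told apart in any comparison that follows.

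When oxygen is short, plant roots respire less and ferment pyruvate to ethanol, and ADH1 carries out the last step, which returns NAD+ to glycolysis. SH1 and SUS1 are closely related enzymes that split sucrose into fructose and UDP-glucose with the help of UDP, a route into glycolysis and cell wall synthesis that spends less ATP than the invertase route. In maize, adh1 and sh1 are long known as genes induced when roots are flooded, and sh1 and sus1 are known to answer to sugar level in opposite ways, with sh1 favoured when sugar is scarce and sus1 when it is plentiful.

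All 3 genes were well counted. Their counts ran from 1129 to 19929 per library, so the counting error of a single value was 0.708 to 2.98%, far less than the spread between duplicates in most cases. Levels are given as CPM, the counts of a gene in a library scaled by the library total, which were not divided by gene length and therefore are compared for a gene between libraries and not between genes. Together the 3 genes held 0.257 to 0.473% of the counts of a ribo-seq library and 0.268 to 0.396% of those of an RNAseq library.

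The level of adh1 differed more between the 0 hr duplicates than between the means of the time points. RPFs of adh1 were at 770 and 330 CPM at 0 hr, 689 and 521 CPM at 6 hr, and 849 and 783 CPM at 12 hr. RNA of adh1 was at 559 and 259 CPM at 0 hr, 447 and 398 CPM at 6 hr, and 620 and 557 CPM at 12 hr. The lowest value in both kinds of library came from replicate 2 at 0 hr, and the duplicates of that time point differed by 2.33 times in RPFs and 2.16 times in RNA. By 12 hr the duplicates lay close together, within 1.08 times in RPFs and 1.11 times in RNA, and near or above the higher of the 0 hr values. In whole roots, a change in the share of a cell type and a change in RNA per cell cannot be told apart. Mean RPF levels were 550 ± 311 CPM at 0 hr, 605 ± 119 CPM at 6 hr and 816 ± 46.7 CPM at 12 hr (SD, n = 2 each). The RNA means were 409 ± 212, 423 ± 34.4 and 588 ± 44.2 CPM at 0, 6 and 12 hr (SD, n = 2 each).

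The shrunken1 gene had nearly equal mean RPF levels at the 3 time points. RPFs of sh1 were at 1186 and 887 CPM at 0 hr, 1155 and 937 CPM at 6 hr, and 1207 and 898 CPM at 12 hr. The means of these 3 pairs were 1037, 1046 and 1052 CPM, with replicate 1 above replicate 2 at each time point. RNA of sh1 was at 1100.5 and 1026 CPM at 0 hr, 952 and 1030 CPM at 6 hr, and 1042 and 711 CPM at 12 hr. Replicate 2 at 12 hr was the 1 RNA library that stood apart, and the other RNA values spanned only 952 to 1100.5 CPM.

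For the other sucrose synthase gene, the CPM values at 6 hr lay above those at 0 hr. RPFs of sus1 were at 1692 and 1356 CPM at 0 hr, 2523 and 2090 CPM at 6 hr, and 2675 and 1603 CPM at 12 hr. RNA of sus1 was at 1427 and 1550 CPM at 0 hr, 2021 and 2294 CPM at 6 hr, and 2302 and 1415 CPM at 12 hr. Both 6 hr values exceeded both 0 hr values in RPFs and in RNA. At 12 hr the duplicates parted, with replicate 1 above both 6 hr values and replicate 2 back inside or below the 0 hr range, by 1.67 times in RPFs and 1.63 times in RNA. The same 12 hr lysate, replicate 2, also gave the lowest sh1 RNA value.

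**Figure D1:**
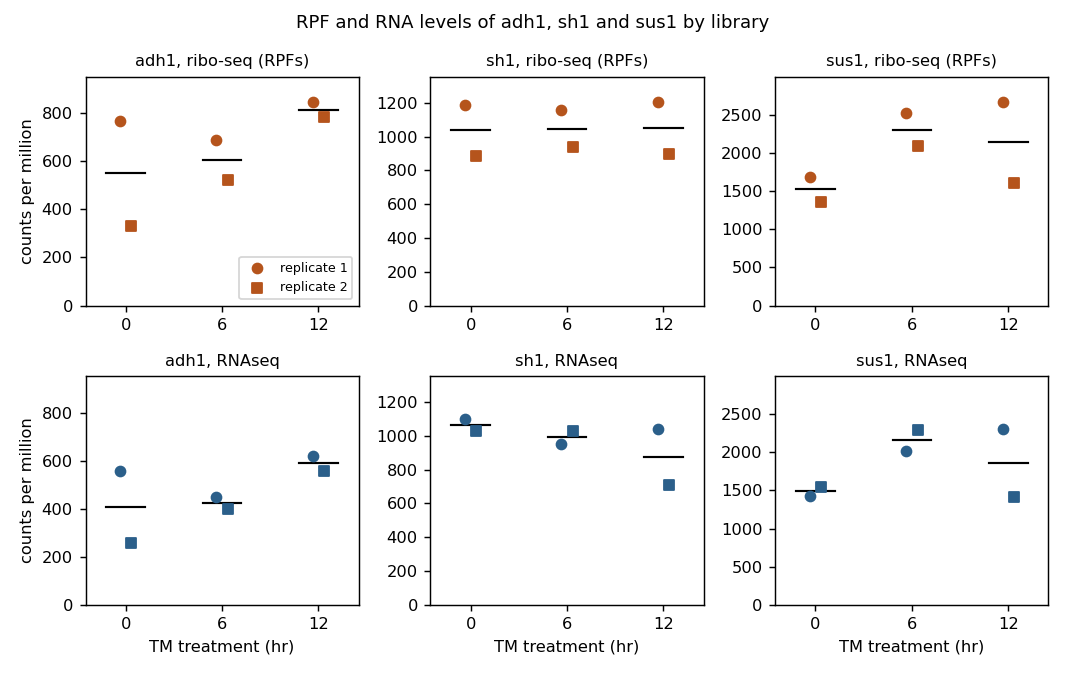
Levels in CPM of adh1, sh1 and sus1 (vertical axes, each from 0) against hours of TM treatment, with ribo-seq libraries above and RNAseq libraries below. Circles are replicate 1, squares replicate 2 and bars the mean of the 2 libraries, and the widest gap between duplicates is that of adh1 at 0 hr, 770 and 330 CPM in RPFs.

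Separation of duplicates carries little weight with 2 libraries per time point, since many genes show it. Of the 3081 genes that reached 100 counts in each of the 12 libraries, the share whose duplicates did not overlap in RPF CPM was 28.0% at 6 against 0 hr, 28.7% at 12 against 0 hr and 27.9% at 12 against 6 hr. The same shares in RNA CPM were 39.2%, 37.5% and 34.2%. Among the genes described here, 1 of 3 was separated in each RPF comparison: sus1 at 6 against 0 hr, and adh1 at 12 against 0 hr and at 12 against 6 hr. In RNA, 1 of 3 was separated at 6 against 0 hr (sus1), 0 of 3 at 12 against 0 hr and 1 of 3 at 12 against 6 hr (adh1). These counts are near the shares found for all well counted genes.

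To test the changes over time, actin counts were made equal between libraries, as in the methods of the study, and the genes were fitted with the quasi-likelihood test of edgeR with all genes that passed its filter on low counts. In RPFs, neither adh1 nor sh1 nor sus1 was called (adjusted p below 0.05) at 6 against 0 hr, where 0.269% of 20414 genes did, at 12 against 0 hr (0.279%) or at 12 against 6 hr (0.049%). In RNA, none of them was called at 6 against 0 hr, where 0.0927% of 23721 genes did, at 12 against 0 hr (0.291%) or at 12 against 6 hr (0%). So few genes passed that the absence of these 3 from the calls says little about them. The intervals below rest on the spread estimated in each fit and do not bound the change. In RPFs that spread was shared across genes, so a gene's own duplicates hardly entered its interval. The marker of ER stress BIP2, which encodes an ER chaperone, did pass, with log2 changes at 12 against 0 hr of 2.30 in RPFs (SE 0.42, adjusted p = 6.52e-05, edgeR) and 2.81 in RNA (SE 0.26, adjusted p = 7.77e-05, edgeR).

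For adh1, the largest estimates came with the 12 hr libraries. The log2 change in RPFs at 12 against 0 hr was 0.40 (SE 0.42, 95% interval -0.43 to 1.23, adjusted p = 1.00, edgeR), and at 12 against 6 hr it was 0.72 (SE 0.42, interval -0.11 to 1.55). In RNA the change at 12 against 0 hr was 0.89 (SE 0.40, interval 0.06 to 1.73, unadjusted p = 0.0374, adjusted p = 0.306, edgeR), and at 12 against 6 hr 0.93 (SE 0.39, interval 0.10 to 1.77, adjusted p = 0.639). At 6 against 0 hr the values were -0.32 (SE 0.42) in RPFs and -0.04 (SE 0.39) in RNA, intervals of -1.15 to 0.51 and -0.87 to 0.79. The RNA interval at 12 against 0 hr thus reached from nearly no change to a 3.32-fold higher level.

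These estimates for adh1 turned on the 0 hr duplicates. Without replicate 1 at 0 hr, the change at 12 against 0 hr was 1.76 in RPFs and 1.95 in RNA. Both values lay above the upper limits of the intervals from all libraries, 1.23 and 1.73. The medians over all genes tested were then 0.49 and 0.81, and adh1 was above 93.7% and 90.4% of genes. Without replicate 2 at 0 hr, the same changes were -0.29 in RPFs and 0.28 in RNA, beside medians of -0.38 and 0.25, above 57.3% and 52.1% of genes. The RPF change of adh1 at 6 against 0 hr was then -1.02, beside a median of -0.67, above 25.3% of genes. Which 0 hr root sample was kept thus changed the direction of the adh1 RPF estimates, and the median of all genes moved the same way. In each of these fits the remaining 0 hr library has no duplicate, and its spread was taken to be like that of the other time points.

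For sh1, the log2 changes in RPFs were -0.35 (SE 0.41) at 6 against 0 hr and -0.06 (SE 0.41, interval -0.87 to 0.74) at 12 against 0 hr. In RNA the 6 hr value was -0.09 (SE 0.28) and the 12 hr value 0.15 (SE 0.28, interval -0.45 to 0.75), both against 0 hr. Between 12 and 6 hr the change was 0.29 (SE 0.41) in RPFs and 0.24 (SE 0.28) in RNA. The adjusted p of the 6 values lay between 0.698 and 1.00 (edgeR), and the RNA interval at 12 against 0 hr spanned 0.73-fold to 1.68-fold.

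For sus1, the log2 change in RPFs was 0.25 (SE 0.40, interval -0.53 to 1.03) at 6 against 0 hr and 0.41 (SE 0.40, interval -0.37 to 1.19) at 12 against 0 hr. In RNA it was 0.56 (SE 0.27, interval 0.00 to 1.13, unadjusted p = 0.0492, adjusted p = 1.00, edgeR) at 6 against 0 hr and 0.75 (SE 0.27, interval 0.19 to 1.32, unadjusted p = 0.0118, adjusted p = 0.258) at 12 against 0 hr. At 12 against 6 hr the values were 0.16 (SE 0.40) in RPFs and 0.19 (SE 0.27) in RNA. Without replicate 1 at 0 hr the changes at 12 against 0 hr were 1.10 in RPFs and 0.99 in RNA. The medians over all genes tested were then 0.49 and 0.81, and sus1 was above 83.2% and 61.4% of genes. Without replicate 2 at 0 hr the changes were -0.06 and 0.55, beside medians of -0.38 and 0.25, above 75.2% and 68.3% of genes.

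Actin scaling moved every gene of a library together, and this has to be read beside the values above. Actin itself had only 59 to 445 counts per library and, at 0 hr, 29.3 and 52.3 CPM in RPFs and 29.2 and 42.9 CPM in RNA. Under this scaling the median log2 change over all genes tested was -0.29 in RPFs and 0.07 in RNA at 6 against 0 hr, -0.01 and 0.51 at 12 against 0 hr, and 0.29 and 0.45 at 12 against 6 hr. Relative to those medians, sus1 was at 0.54 in RPFs and 0.50 in RNA at 6 against 0 hr, above 88.7% and 84.4% of genes. At 12 against 0 hr sus1 was at 0.42 in RPFs and 0.25 in RNA, above 84.1% and 70.0% of genes. The corresponding 12 against 0 hr values of adh1 were 0.40 and 0.39, above 83.5% and 78.5% of genes. Leaving out 1 replicate moved these ranks: sus1 at 12 against 0 hr was above 51.3% of genes in RPFs and 43.2% in RNA without replicate 1 at 12 hr, and adh1 above 57.3% and 52.1% without replicate 2 at 0 hr. For sh1 the values relative to the median were -0.06 and -0.36, above 43.5% and 23.0% of genes (66.9% and 46.3% without replicate 2 at 12 hr, 28.0% and 17.4% without replicate 1 at 12 hr, and 65.6% in RPFs without replicate 1 at 0 hr). The RNA change of sh1 was 0.15 with actin scaling but -0.28 with TMM, a scaling that centres most genes on zero change.

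Ratios between the 3 genes inside a library need no scaling at all. They were taken up after the levels had been seen. Counts of sus1 over counts of sh1 in RPFs were 1.43 and 1.53 at 0 hr, then 2.18 and 2.23 at 6 hr and then 2.22 and 1.79 at 12 hr. In RNA the ratio was 1.30 and 1.51 at 0 hr, then 2.12 and 2.23 at 6 hr and then 2.21 and 1.99 at 12 hr. Each of the 8 libraries from 6 and 12 hr was above each 0 hr library of its kind. In RNA of replicate 2 at 12 hr, however, sus1 itself was at 1415 CPM, below both 0 hr values, and sh1 was at its lowest, 711 CPM. The ratio of sus1 to sh1 at 6 hr was thus 1.49-fold that at 0 hr in RPFs and 1.55-fold in RNA, and at 12 hr it was 1.35-fold and 1.50-fold that at 0 hr. Reads matching both genes equally well were kept once, so the counts of these related genes may overlap in part, and the size of that overlap was not tested.

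The number of libraries bounds what a test can say of that ratio. The two-sided exact permutation test of 2 against 2 libraries gave p = 0.333 in all 4 comparisons, the smallest value it can give. Over the other 3080 well counted genes, the ratio to sh1 was separated between duplicates in 14.7% (RPFs, 6 against 0 hr), 12.8% (RPFs, 12 against 0 hr), 37.8% (RNA, 6 against 0 hr) and 29.3% (RNA, 12 against 0 hr), and sus1 was among them in all 4. A ratio to sh1 that was higher in all 8 later libraries than in the 0 hr libraries of its kind was found for 62 of the 3080 genes, or 2.01%. This share counts higher ratios only, whereas the 4 shares before it count either direction. Its criterion follows the pattern already seen in sus1, so the share is a description and not a test. RNA and RPF libraries of a time point come from the same lysates, and both later time points share the 0 hr libraries, so the 4 comparisons are not independent. With sh1 in place of actin for scaling, edgeR gave sus1 log2 changes at 6 against 0 hr of 0.58 in RPFs (SE 0.36, adjusted p = 1.00) and 0.63 in RNA (SE 0.31, adjusted p = 0.855).

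The ratio of adh1 to sh1 was higher at 12 hr than at 0 hr. In RPFs it was 0.649 and 0.372 at 0 hr, then 0.597 and 0.556 at 6 hr and then 0.703 and 0.872 at 12 hr. In RNA it was 0.508 and 0.252 at 0 hr, then 0.470 and 0.387 at 6 hr and then 0.595 and 0.783 at 12 hr. The 0.783 came from replicate 2, where sh1 RNA was at 711 CPM and adh1 RNA at 557 CPM, between its 0 hr values. The 6 hr ratios fell between the 0 hr duplicates, while both 12 hr ratios exceeded both 0 hr ratios, by 1.54-fold in RPFs and 1.81-fold in RNA on the means. The two-sided exact permutation p was again 0.333, the smallest possible with 2 against 2 libraries. Such a higher ratio to sh1 in both kinds of library at 12 against 0 hr was seen in 137 of 3080 genes, or 4.45%. That criterion likewise follows the pattern already seen, here in adh1, and the share is a description. With sh1 scaling, edgeR gave adh1 log2 changes at 12 against 0 hr of 0.63 in RPFs (SE 0.39, adjusted p = 1.00) and 0.86 in RNA (SE 0.34, adjusted p = 0.281). The ratio of adh1 to sus1 at 6 and at 12 hr overlapped that at 0 hr in RPFs and in RNA, because the 0 hr duplicates lay far apart, at 0.455 and 0.243 in RPFs. Both 12 hr ratios of adh1 to sus1, 0.317 and 0.488 in RPFs and 0.269 and 0.394 in RNA, were above both 6 hr ratios, 0.273 and 0.249 in RPFs and 0.221 and 0.174 in RNA (two-sided exact permutation p = 0.333, the smallest possible).

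**Figure D2:**
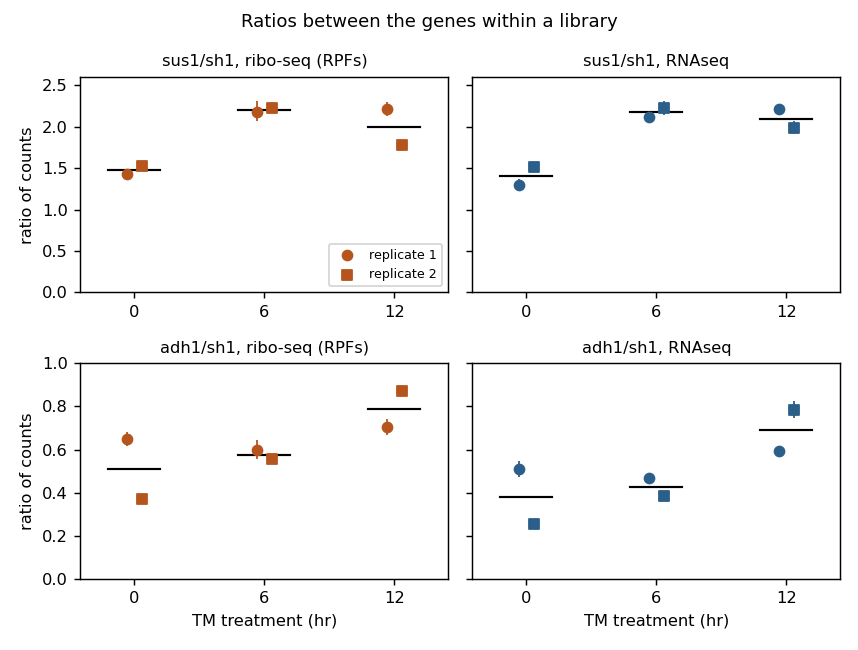
Ratio of counts within a library (vertical axes, from 0) against hours of TM treatment, sus1 over sh1 in the upper row and adh1 over sh1 in the lower, with ribo-seq at left and RNAseq at right. Circles and squares are replicates 1 and 2 with exact binomial 95% intervals, which cover counting error only, and bars are means of 2 libraries; sus1 over sh1 is 1.30 to 1.53 in the 0 hr libraries and 1.79 to 2.23 in the later ones.

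In CPM, ribosome occupancy of adh1 followed its RNA closely from lysate to lysate. The ratio of RPF CPM to RNA CPM for adh1 was 1.38 and 1.27 at 0 hr, then 1.54 and 1.31 at 6 hr and then 1.37 and 1.41 at 12 hr, a mean of 1.38 ± 0.0932 (SD, n = 6 lysates). The 2.39-fold range of adh1 RNA over the 6 lysates and the 2.57-fold range of its RPFs thus left a ratio that varied by 1.21 times. The SD of its log2 ratio over lysates was 0.0955, against a median of 0.211 over the 3081 well counted genes, and 5.10% of those genes had a smaller one. With actin scaling the ratio of adh1 was 1.37 and 1.05 at 0 hr, then 1.18 and 0.948 at 6 hr and then 0.995 and 0.855 at 12 hr, a 1.60-fold range. The SD of its log2 ratio was then 0.242, against a median of 0.307 over well counted genes, and 23.8% of those genes had a smaller one. The narrow spread in CPM thus did not hold on the actin scale.

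Over the 6 lysates RPF and RNA levels of adh1 had a Pearson r of 0.983 (exact permutation p = 0.00278, adjusted over the 3 genes 0.00833) and a Spearman rho of 0.943 (exact permutation p = 0.0167, adjusted 0.050). Without the 2 lysates farthest from the median RNA level, 0 hr replicate 2 and 12 hr replicate 1, r was 0.935. These permutations, on CPM, shuffled all 6 lysates across time points, so changes shared over time also entered their p. The duplicates of adh1 were ordered alike in RPFs and RNA at all 3 time points, those of sh1 at 2 and those of sus1 only at 12 hr. The r of adh1 was above that of 98.8% of well counted genes, whose median was 0.495, a rank not matched for counts. For sus1, r was 0.833 (exact permutation p = 0.0694, adjusted 0.104) and rho 0.771 (exact permutation p = 0.103, adjusted 0.154), with r of 0.881 without the 2 farthest lysates. For sh1, whose levels varied least, r was 0.480 (exact permutation p = 0.379) and rho 0.657 (exact permutation p = 0.175), with r of 0.685 without the 2 farthest. With the mean of each time point subtracted, r over the 6 lysates was 0.978 for adh1, 0.702 for sus1 and 0.639 for sh1, with exact permutation p within time points of 0.25, 1.0 and 0.50, where 0.25 is the smallest value possible. With actin scaling, r without that subtraction was 0.877 for adh1, 0.672 for sus1 and 0.829 for sh1, so adh1 no longer stood so far from the others.

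**Figure D3:**
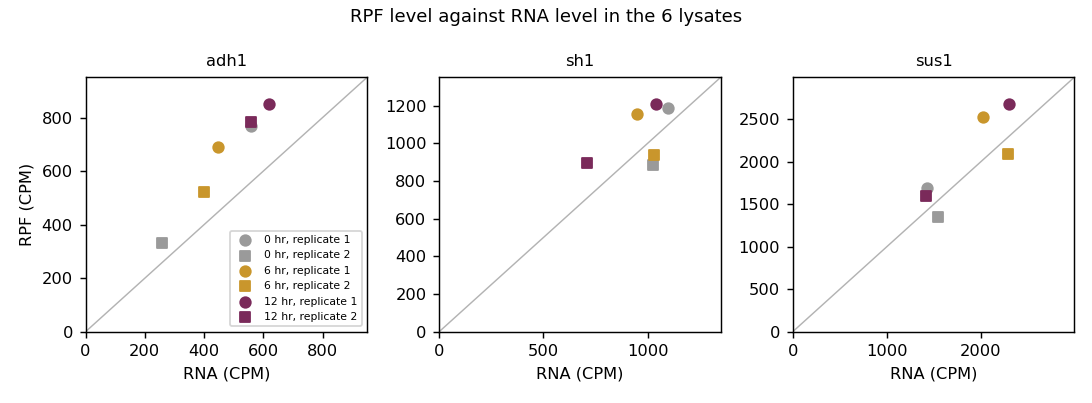
RPF level against RNA level in CPM for adh1, sh1 and sus1, 1 point per lysate, coloured by time point, with circles for replicate 1, squares for replicate 2 and a grey line of equal values. The adh1 points lie along a line through the whole range (r = 0.983), whereas sh1 points bunch together (r = 0.480).

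In CPM the RPF to RNA ratios of the sucrose synthase genes all lay below the lowest adh1 ratio, but with actin scaling the ranges overlapped, 0.855 to 1.37 for adh1, 0.659 to 1.07 for sh1 and 0.660 to 1.18 for sus1. Within each of the 6 lysates the ratio of adh1 was above those of sh1 and sus1, an order that no scaling of libraries can change. Among well counted genes, the mean log2 ratio of adh1 was above 60.5%, that of sh1 above 32.4% and that of sus1 above 33.0%. In CPM the ratio for sh1 was 1.08 and 0.865 at 0 hr, then 1.21 and 0.909 at 6 hr and then 1.16 and 1.26 at 12 hr. The ratio for sus1 was 1.19 and 0.875 at 0 hr, then 1.25 and 0.911 at 6 hr and then 1.16 and 1.13 at 12 hr. In both genes replicate 2 was below replicate 1 at 0 and 6 hr by a similar step, and the 12 hr duplicates were closer. In CPM only sh1 at 12 against 0 hr was separated, 1 of 3 genes where 35.8% of well counted genes were. At 6 against 0 hr and at 12 against 6 hr it was 0 of 3 genes, with 25.9% and 27.4% of well counted genes separated.

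**Figure D4:**
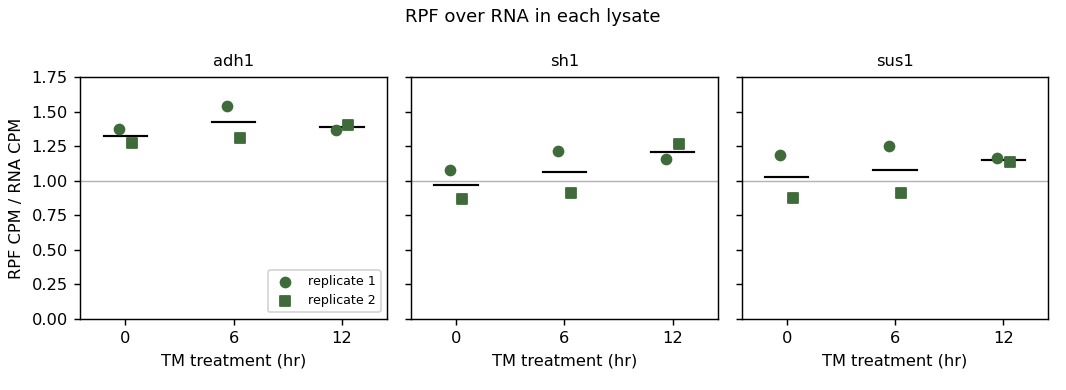
RPF CPM divided by RNA CPM (vertical axis, from 0) in each lysate against hours of TM treatment for adh1, sh1 and sus1. Circles are replicate 1, squares replicate 2, bars the mean of 2 lysates and the grey line a ratio of 1, and adh1 stays between 1.27 and 1.54 while sh1 and sus1 span 0.865 to 1.26 and 0.875 to 1.25.

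Changes in translation efficiency, the RPF level relative to the RNA level, were tested with edgeR in a model of all 12 libraries that kept the lysate as a term. None of the 3 genes was called at 6 against 0 hr, at 12 against 0 hr or at 12 against 6 hr, and neither was any other of the 20055 genes tested (0% in each). At an unadjusted p below 0.05 there were 1510, 3028 and 334 genes in these comparisons, and DESeq2 with the same scaling called 1, 15 and 0 genes. The log2 changes at 12 against 0 hr were -0.38 for adh1 (SE 0.28, interval -0.97 to 0.21, adjusted p = 0.500), -0.12 for sh1 (SE 0.30, interval -0.75 to 0.51, adjusted p = 0.862) and -0.27 for sus1 (SE 0.32, interval -0.94 to 0.40, adjusted p = 0.683). The median over all genes was -0.45 and all 3 genes lay above it. The signs turned with TMM, to 0.09, 0.35 and 0.20, and with actin scaling those of sh1 and sus1 also turned without replicate 1 at 0 hr, to 0.18 and 0.086. At 6 against 0 hr the values were -0.18 for adh1, -0.16 for sh1 and -0.21 for sus1 with actin scaling, beside a median of -0.32, and 0.12, 0.14 and 0.08 with TMM. At 12 against 6 hr they were -0.20, 0.04 and -0.06, beside a median of -0.12.

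In RNA at 12 against 6 hr, where no gene was called by edgeR, 1167 genes had an unadjusted p below 0.05, and DESeq2 with actin factors called 2. Across the 9 comparisons of the 3 genes, 27 tests in all, 4 had an unadjusted p below 0.05: RNA of sus1 at 6 and at 12 against 0 hr, and RNA of adh1 at 12 against 0 hr and at 12 against 6 hr. Over all genes tested, the share with such a p was 4.27%, 15.3% and 4.92% in RNA at 6 against 0 hr, 12 against 0 hr and 12 against 6 hr, 3.63%, 2.68% and 2.07% in RPFs, and 7.53%, 15.1% and 1.67% in translation efficiency. With TMM, 2 of the 27 had an unadjusted p below 0.05, RPFs and RNA of sus1 at 6 against 0 hr, and the other 3 RNA values were past 0.05. The comparisons at 6 and at 12 hr share the 0 hr libraries.

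**Figure D5:**
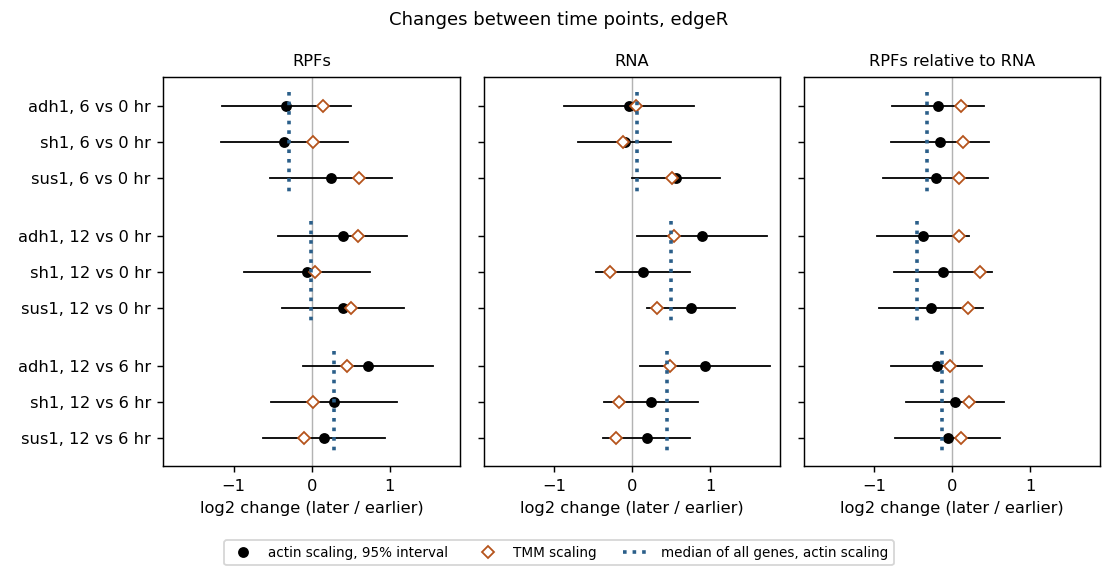
Log2 change between time points in RPFs, RNA and RPFs relative to RNA (horizontal axes) for each gene and comparison. Filled points with lines are edgeR estimates with actin scaling and their 95% intervals, open diamonds TMM estimates, and dotted lines the median of all genes with actin scaling, which at 12 against 0 hr lay at 0.51 in RNA and -0.45 in RPFs relative to RNA.

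The pattern of the 3 genes over the libraries was compared with that of 12415 genes that averaged at least 50 counts in each kind of library. Log2 values of CPM + 1 were centred within each kind of library, and Pearson's r was taken over the 12 libraries as a description, since libraries of a lysate share their root sample. The most similar gene to adh1 was Zm00001d053322 (r = 0.955), that to sh1 Zm00001d039200 (r = 0.938) and that to sus1 Zm00001d015459 (r = 0.943). The table does not pair these identifiers with names. Among themselves the 3 genes were less alike, with r of 0.527 between sh1 and sus1, 0.349 between adh1 and sus1 and 0.226 between adh1 and sh1.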

How the data were processed

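Total RNA and RPFs were sequenced from 6 root lysates, giving 12 libraries. Per the labels and the methods, the authors trimmed reads, removed noncoding RNA, mapped the rest to coding sequences of B73 RefGen_v4 and summed counts by gene. The submitters' processing notes name FastQC, cutadapt 1.16, Bowtie 1.2 and SAMtools. The deposited values are raw counts, with no normalization, and 0 columns were left unused. Reads matching several genes equally well were kept once, so related genes, such as both sucrose synthase genes, could share counts. Removal of PCR duplicates is not stated, so counting errors are lower limits.

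RNAseq libraries held 2019128 to 9861654 counts and ribo-seq libraries 1667094 to 12328304. The gene names come with the identifiers chosen for study. The genes, lists and tests were chosen with earlier results of these data known, and the genes named as similar are those with the highest correlation. A list of fermentation and sugar genes and root cell markers could not be run, since the annotation used here does not carry these identifiers, so the tissue was not checked by markers.

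CPM were calculated from library totals. Tests used edgeR 4.0.16 in R 4.3.3 (glmQLFit and glmQLFTest, filterByExpr) with actin-scaled libraries and Benjamini-Hochberg adjustment over all genes tested. Translation efficiency was the interaction of library type and time in 1 model with lysate terms. In the RPF fit the prior degrees of freedom were infinite, so a gene's own spread hardly entered its p. Alternatives were TMM, total count, alpha tubulin 3 and sh1 scaling, no filter, DESeq2 1.42.0, the replicate number as a block, no lysate term and leaving out each replicate. Tests were checked on simulated data. P-values measure only the spread between these samples, which in the RPF fit was shared across genes.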

Additional observations from a re-analysis of the deposited data

How the results depend on the processing

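The 27 changes of adh1, sh1 and sus1 were recomputed under 372 alternatives, and 6 of the 27 changes kept their sign throughout. Apart from fits that left 1 library at a time point, no alternative gave an adjusted p below 0.05. The cause was not tested. The same changes turned with TMM, total counts and the size factors of DESeq2. In the order TMM, total counts and DESeq2, the log2 changes that turned were, in RNA, 0.051, 0.055 and 0.018 for adh1 at 6 against 0 hr, -0.28, -0.28 and -0.30 for sh1 at 12 against 0 hr, -0.17, -0.18 and -0.15 for sh1 at 12 against 6 hr, and -0.20, -0.21 and -0.19 for sus1 at 12 against 6 hr. In RPFs they were 0.15, 0.14 and 0.15 for adh1 and 0.018, 0.013 and 0.024 for sh1 at 6 against 0 hr, 0.042, 0.021 and 0.033 for sh1 at 12 against 0 hr, and -0.094, -0.11 and -0.11 for sus1 at 12 against 6 hr. In translation efficiency they were 0.12, 0.10 and 0.15 for adh1, 0.14, 0.12 and 0.17 for sh1 and 0.084, 0.067 and 0.12 for sus1 at 6 against 0 hr, 0.091, 0.067 and 0.093 for adh1, 0.35, 0.33 and 0.35 for sh1 and 0.20, 0.17 and 0.20 for sus1 at 12 against 0 hr, and 0.11, 0.11 and 0.084 for sus1 at 12 against 6 hr. With alpha tubulin 3 scaling, RNA was -0.19 for sh1 at 12 against 0 hr and -0.0044 for sus1 at 12 against 6 hr, RPFs 0.10 for sh1 at 12 against 0 hr, and translation efficiency 0.034, 0.29 and 0.14 for adh1, sh1 and sus1 at 12 against 0 hr and 0.15 and 0.29 for adh1 and sus1 at 12 against 6 hr. With sh1 scaling, chosen after seeing the data, RNA was 0.17 for adh1 at 6 against 0 hr and -0.051 for sus1 at 12 against 6 hr, and RPFs 0.17 and -0.14. What a replicate number shares between time points is not stated. Differences between duplicates correlated between time points at -0.331 to 0.108 in RNA and -0.0354 to 0.412 in RPFs. With the replicate number as a block, RNA of adh1 at 6 against 0 hr was 0.080 and RPFs of sh1 at 12 against 0 hr 0.029, and no call changed. Leaving out 1 replicate of a time point at a time gave, at 6 against 0 hr, RNA of -0.65 to 1.02 for adh1 and -0.39 to 0.27 for sh1, RPFs of -1.02 to 1.04, -0.85 to 0.41 and -0.22 to 0.94 for adh1, sh1 and sus1, and translation efficiency of -0.37 to 0.016, -0.45 to 0.14 and -0.57 to 0.15. At 12 against 0 hr it gave RNA of 0.28 to 1.95, -0.15 to 0.51 and 0.55 to 0.99, RPFs of -0.29 to 1.76, -0.56 to 0.69 and -0.057 to 1.10, and translation efficiency of -0.42 to 0.18 for sh1 and -0.63 to 0.086 for sus1. At 12 against 6 hr it gave RPFs of -0.16 to 0.42 for sus1 and translation efficiency of -0.21 to 0.29 for sh1 and -0.33 to 0.21 for sus1. The number of genes called over all alternatives ran from 10 to 452 in RNA at 6 against 0 hr (22 with actin scaling in edgeR), 23 to 3257 at 12 against 0 hr (69) and 0 to 148 at 12 against 6 hr (0), from 6 to 666 (55), 10 to 182 (57) and 0 to 13 (10) in RPFs, and from 0 to 1, 37 and 1 in translation efficiency (0 each). The actin-scaled RPF to RNA ranges and correlations of the report were added after seeing the data.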
